A study of Mus musculus with 4 samples.

Results

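The constant region genes of the mouse antibody chains and their assembly partners were examined in liver tumours of mice fed Akkermansia muciniphila. The set was given as a list of 10 symbols and held 7 heavy chain genes (Ighm, Ighd, Ighg1, Ighg2b, Ighg2c, Ighg3 and Igha), the kappa light chain gene Igkc, the joining chain gene Jchain, and Mzb1. All 10 were found by symbol among the 48526 gene identifiers of the count tables. The AKK group (2 libraries) came from C57BL/6 mice given 5000000000 colony-forming units of A. muciniphila, a mucin-degrading gut bacterium, by mouth, and the PBS group (2 libraries) from C57BL/6 mice given phosphate-buffered saline instead. Oral dosing began 2 weeks before a methionine- and choline-deficient (MCD) diet and continued through its 2 weeks. Every mouse in both groups ate that diet, which produces a fatty liver, and then received an orthotopic liver implant of RIL-175, a luciferase-labelled mouse hepatoma line. Oral dosing paused for 6 days after surgery and was then resumed to the end. The tumours are therefore grafts of 1 cell line in a fatty liver, the tumour RNA is bulk RNA, and the labels used here give neither age nor sex. The labels call the libraries of a group biological replicates without saying whether each is a different mouse. The p-values therefore speak only for the variation among these tumour samples, which may be technical.

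Antibodies are carried by B cells and secreted in quantity by the plasmablasts and plasma cells that arise from them. A naive B cell carries IgM and IgD, and class switching then replaces the Ighm exons by those of a downstream gene, so that the same antigen site is joined to another constant region. In C57BL/6 mice the heavy chain genes lie in the order Ighm, Ighd, Ighg3, Ighg1, Ighg2b, Ighg2c, Ighe and Igha, an order that the GENCODE M21 annotation also gives. As background from mouse immunology, interferon gamma favours the switch to IgG2c, interleukin 4 the switch to IgG1 and IgE, and transforming growth factor beta the switch to IgA and IgG2b. IgA is the antibody of the gut and other mucosae, and J chain joins IgA and IgM into polymers that the receptor encoded by Pigr carries across epithelia.

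The 4 gamma genes are the closest relatives in the set, and the short exon that encodes the hinge between the antigen-binding arms and the stem is where they differ most. The hinge exons are shown because the shares of Ighg2c and Ighg2b did not overlap between the groups, while that of Ighg1 did. They are exon 2 of the secreted transcripts in GENCODE M21 (GRCm38, minus strand), and capitals mark in-frame cysteine codons, which encode the residues that can bond the heavy chains to each other. They lie at chr12:113329844-113329882 (Ighg1), chr12:113307261-113307326 (Ighg2b), chr12:113288263-113288325 (Ighg2c) and chr12:113360529-113360576 (Ighg3).
Ighg1 hinge: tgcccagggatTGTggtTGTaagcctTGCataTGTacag
Ighg2b hinge: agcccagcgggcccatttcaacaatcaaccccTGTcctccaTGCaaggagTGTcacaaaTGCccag
Ighg2c hinge: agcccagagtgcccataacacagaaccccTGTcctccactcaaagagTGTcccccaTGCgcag
Ighg3 hinge: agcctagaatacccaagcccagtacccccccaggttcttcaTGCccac

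The hinge exons measured 39 bases in Ighg1, 66 in Ighg2b, 63 in Ighg2c and 48 in Ighg3, with 4, 4, 3 and 1 cysteine codons in that order. Ighg2b and Ighg2c shared 77.3% of aligned hinge positions and 86.2% of positions over the secreted transcript, the highest identity among the 6 gamma pairs. Ighg1 and Ighg2c shared 33.3% and 74.3%. None of the 151-base windows of the constant region transcripts recurred in another immunoglobulin transcript of that annotation, so a read of 151 bases has 1 place among them. Shorter matches and allelic differences were not examined.

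The second set of sequences is the end of the secreted heavy chains of IgM and IgA. This tailpiece carries the next-to-last codon for a cysteine, shown in capitals, through which J chain binds. The 57 bases are the last coding bases of Ighm and Igha (GENCODE M21, chromosome 12, minus strand), including the stop codon, and they are shown because the reads of Jchain are set against those of Ighm and Igha further on.
Ighm tailpiece: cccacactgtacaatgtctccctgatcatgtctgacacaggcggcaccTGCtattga
Igha tailpiece: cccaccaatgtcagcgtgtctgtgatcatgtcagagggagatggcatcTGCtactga

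The libraries held 55360237 and 59027227 reads on genes in AKK 1 and AKK 2, against 52500328 and 48912489 in PBS 1 and PBS 2. Levels are in CPM, the read count scaled to a common library size by TMM, on which 3 reads are worth 0.0514 to 0.0631 CPM. AKK 1 stood apart in make-up, with 3.92% of its reads on mitochondrial genes, against 1.64 to 2.33% in the other libraries. PBS 1 held skeletal muscle transcripts, and Acta1 read 0.0885 and 0.240 CPM in AKK against 83.7 and 2.29 CPM in PBS. The epithelial keratin gene Krt8 read 2511 and 2610 CPM in AKK against 1443 and 2632 CPM in PBS, and Afp 8.55 and 10.3 against 7.18 and 11.1 CPM. The other 5 genes of the tumour and epithelial list did not all run level between the groups. Epcam had 127 and 197 reads in AKK and 7 and 1 in PBS, and Gpc3 had 1 and 4 reads in AKK and 39 and 16 in PBS. The deposited tables are named by different patterns in the 2 groups. Were the names to stand for cohorts, a cohort effect and a feeding effect cannot be told apart.

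Reads of the interferon-associated subclass Ighg2c (ENSMUSG00000076612.7) numbered 1222 and 859 in AKK 1 and AKK 2, against 30 and 42 in PBS 1 and PBS 2, that is 21.6 and 14.7 CPM against 0.562 and 0.883 CPM. Both AKK libraries lay far above both PBS libraries, and the spread within a group was small beside the gap. The difference was 4.65 on the log2 scale (SE 0.42, 25.1-fold, adjusted p = 0.111 in edgeR's quasi-likelihood test). Ighg2b (ENSMUSG00000076613.3), which encodes the heavy chain of IgG2b, read 18.0 and 4.91 CPM in AKK against 0.244 and 0.463 CPM in PBS. Its groups did not overlap either, though AKK 1 lay well above AKK 2 (log2 difference 5.02, SE 0.80, adjusted p = 0.182 in edgeR). Ighg3 (ENSMUSG00000076615.3), a subclass known for responses to carbohydrate antigens, had 49 and 47 reads in AKK and 2 and 8 in PBS. The AKK libraries were alike and above both PBS libraries (log2 difference 3.02, SE 0.77, adjusted p = 0.214 in edgeR).

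Ighg1 (ENSMUSG00000076614.7), the subclass tied to interleukin 4, did not follow the other gamma genes in the controls. It had 369 and 220 reads in AKK and 1 and 146 in PBS, or 6.53 and 3.77 CPM against 0.0187 and 3.07 CPM. PBS 2 lay near AKK 2 while PBS 1 was close to 0, so most of the spread of this gene lay between the PBS tumours (log2 difference 1.74, SE 1.48, adjusted p = 0.588 in edgeR). Without PBS 2 the log2 difference was 7.91, and without PBS 1 it was 0.74.

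**Figure D1:**
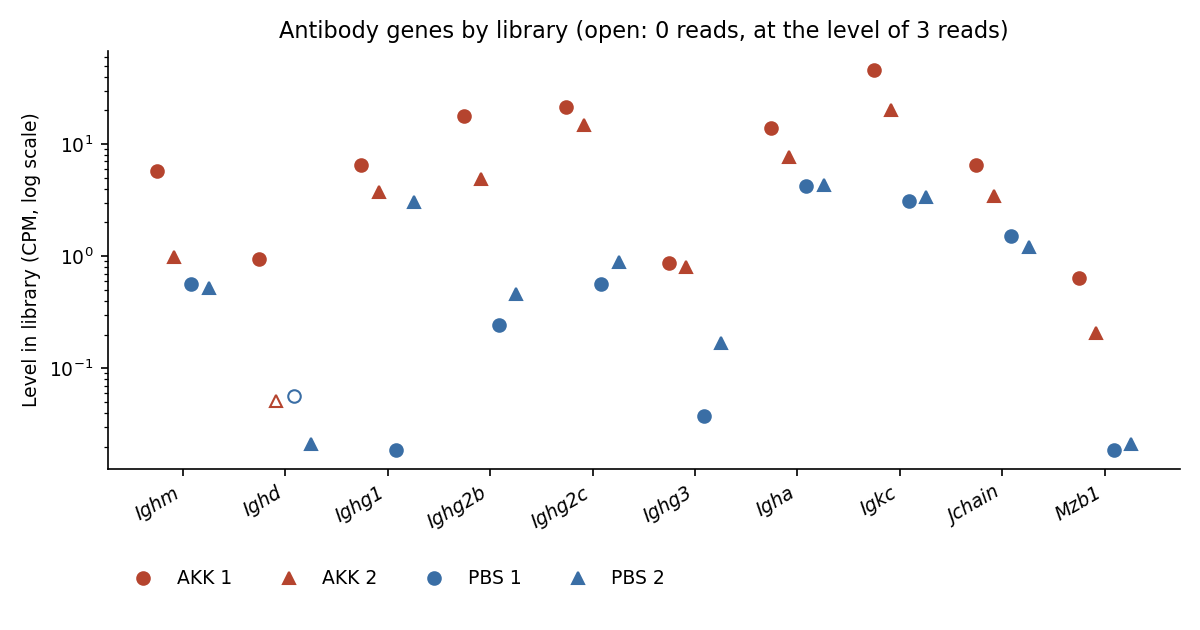
Level of each of the 10 genes in each library, in CPM on a log axis, with AKK libraries in red and PBS libraries in blue; circles are replicate 1 and triangles replicate 2. Open symbols stand for 0 reads and are drawn at the level of 3 reads; the PBS values of Ighg1 differ from each other by more than those of any other gene shown.

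Igha (ENSMUSG00000095079.6), the heavy chain of IgA, was the heavy chain with the most reads in both PBS libraries. It read 13.9 and 7.72 CPM in AKK against 4.25 and 4.29 CPM in PBS. The groups did not overlap, but the log2 difference of 1.34 (SE 0.39, adjusted p = 0.245 in edgeR) was the smallest among the 9 members tested. Ighm (ENSMUSG00000076617.9), the class made before any switch, read 5.70 and 0.993 CPM in AKK against 0.562 and 0.526 CPM in PBS. AKK 1 lay apart from the other 3 libraries (log2 difference 2.61, SE 0.87, adjusted p = 0.277 in edgeR), and without AKK 1 the log2 difference was 0.87. Ighd (ENSMUSG00000104213.5), which mature naive B cells express beside Ighm, had 53 and 0 reads in AKK and 0 and 1 in PBS, and did not pass the filter on low counts. Its reads came from AKK 1 with 1 exception in PBS 2.

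The kappa light chain gene Igkc (ENSMUSG00000076609.2) had more reads than any other member in both AKK libraries, with 2602 and 1174 reads, against 165 and 162 in PBS, where Igha had more. It read 46.0 and 20.1 CPM in AKK against 3.09 and 3.41 CPM in PBS (log2 difference 3.35, SE 0.45, 10.2-fold, adjusted p = 0.182 in edgeR). The PBS libraries were alike and both AKK libraries lay above them. The lambda constant genes, which are not among the 10, were unlike each other. Iglc1 read 6.49 and 0.291 CPM in AKK against 0.0187 and 0.841 CPM in PBS, with overlapping groups. Iglc3 had 68 and 48 reads in AKK and 0 in each PBS library, at least 17.0-fold higher in AKK when each PBS library is set to 3 reads. Iglc2 had 17 and 1 reads in AKK against 1 and 0 in PBS, and Iglc4 and the IgE gene Ighe had 0 reads in all 4 libraries.

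Jchain (ENSMUSG00000067149.6) read 6.49 and 3.48 CPM in AKK against 1.4995 and 1.1986 CPM in PBS. Both AKK libraries lay above both PBS libraries (log2 difference 1.88, SE 0.48, adjusted p = 0.216 in edgeR). Mzb1 (ENSMUSG00000024353.4), an endoplasmic reticulum cochaperone that assists antibody assembly and secretion, had 36 and 12 reads in AKK and 1 and 1 in PBS. The ratio of its pooled rates was 21.1 (exact 95% interval 5.53 to 179, counting error only), and edgeR gave an adjusted p of 0.195.

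Over all genes edgeR called 1 of 17479, a background of 0.00572%, and 0 of the 9 members that passed the filter. The called gene was Fgb, a fibrinogen chain made by hepatocytes, at 75.4 and 50.8 CPM in AKK against 0.112 and 0.189 CPM in PBS (adjusted p = 0.0160). At an unadjusted p under 0.05 as higher in AKK, edgeR listed 8 of these 9 members, all but Ighg1, against 6.70% of all genes. DESeq2 called Ighg2c, Ighg2b, Igkc, Jchain, Igha and Ighm as higher, 6 of the 10 members, against a background of 2.03% of the genes it tested, and limma-voom called 0. In all 9 members each AKK value exceeded each PBS value, against 26.7% of all genes. Their median log2 difference was 3.02, against 0.02 over all genes tested. Ighg3 and Mzb1 reached the filter's level of 0.185 CPM in the AKK libraries alone and so could enter only as higher genes. Members may share cell sources, which was not tested, and are not taken as independent of each other. In bulk tissue, more antibody-secreting cells and more antibody RNA per cell in AKK cannot be told apart. Without AKK 1, 8 members were tested, all 8 positive, with a median log2 difference of 2.00. The median was 2.96 without PBS 1 and 4.34 without PBS 2, each over 10 members.

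**Figure D2:**
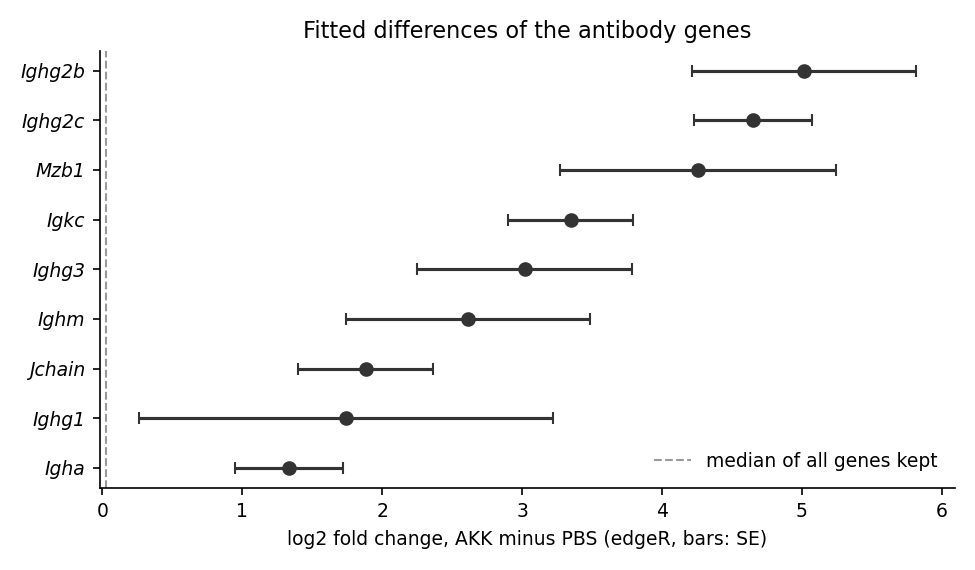
Fitted log2 difference, AKK minus PBS, of the 9 members that passed the filter, with bars of 1 standard error from edgeR (2 libraries per group). All 9 lie to the right of the dashed median of all genes at 0.02, from 1.34 for Igha to 5.02 for Ighg2b, and the bar of Ighg1 is the widest.

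The make-up of the heavy chain classes was then taken within each library, which is independent of how libraries are scaled. Reads on the 8 heavy chain constant genes numbered 3813 and 1922 in AKK 1 and AKK 2, against 303 and 448 in PBS 1 and PBS 2. The 4 gamma genes together held 69.6% and 73.5% of these reads in AKK, against 15.2% and 48.7% in PBS. Both AKK libraries therefore had a mostly gamma make-up, with means of 71.6% ± 2.75 in AKK and 31.9% ± 23.7 in PBS (SD, n = 2 each), and the PBS libraries differed from each other by more than the AKK libraries did. Igha held 20.5% and 23.5% in AKK, against 74.9% and 45.5% in PBS. Its share was lower in both AKK libraries, although its level in CPM was higher in both. Exact Clopper-Pearson 95% intervals of the Igha share were 19.3 to 21.9% and 21.6 to 25.4% in AKK 1 and AKK 2, against 69.6 to 79.7% and 40.9 to 50.3% in PBS 1 and PBS 2. These intervals cover counting error only, since reads without molecular identifiers are not independent molecules.

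Ighg2c held 32.0% and 44.7% of heavy chain reads in AKK, against 9.90% and 9.38% in PBS. Ighg2b held 26.6% and 14.9%, against 4.29% and 4.91%. For both subclasses the AKK libraries differed from each other but stood above 2 closely matched PBS libraries. Ighg1 held 9.68% and 11.4% in AKK, against 0.330% and 32.6% in PBS, so the gamma share of PBS 2 was mostly Ighg1, and its AKK values lay between the PBS values. Ighm held 8.44% and 3.02% in AKK, against 9.90% and 5.58% in PBS, with overlap, and the direction of its mean difference turned when AKK 2 or PBS 1 was left out. Ighg3 (1.29% and 2.45% against 0.660% and 1.79%) and Ighd (1.39% and 0% against 0% and 0.223%) overlapped as well. For the 0 reads of Ighd, 3 reads would be a share of 0.156% in AKK 2 and 0.9901% in PBS 1, and the exact 95% intervals reach 0.192% and 1.21%.

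Of 8 shares compared, those of Igha, Ighg2b, Ighg2c and the summed gamma genes did not overlap between the groups, each with p = 0.3333 in an exact two-sided permutation test over libraries (0.667 after Benjamini-Hochberg adjustment). With 2 libraries against 2, p = 0.3333 is the smallest value the exact permutation test allows, so no share could pass a threshold of 0.05. Groups that do not overlap were also common among gene levels. Of all 17479 genes tested, 4674 lay higher in both AKK libraries and 4317 lay lower in both. The shares of a library add up to the whole, and the summed gamma genes include Ighg2b and Ighg2c. Their differences are therefore not independent of each other. The mean difference was 28.7 points for Ighg2c, 16.2 for Ighg2b, 39.7 for the summed gamma genes and -38.2 for Igha. Without PBS 1 the last 2 were 22.9 and -23.5 points, and without PBS 2 they were 56.4 and -52.9. Without AKK 1 the differences for Ighg2c, the summed gamma genes and Igha were 35.1, 41.6 and -36.8 points. That for Ighg2b was 10.3 points without AKK 1 and 22.0 points without AKK 2.

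**Figure D3:**
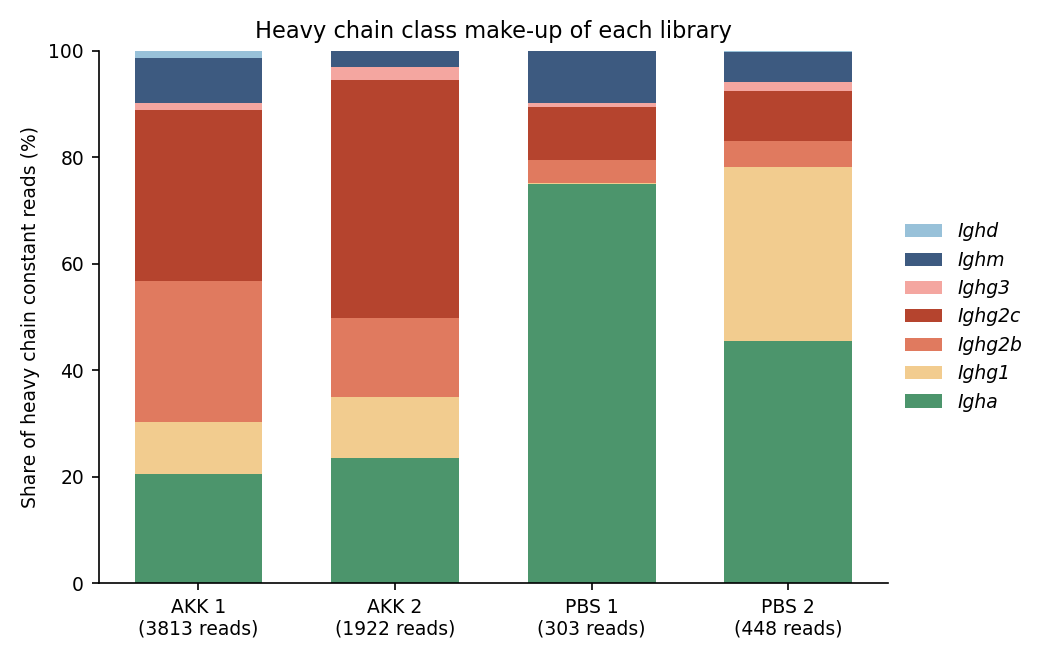
Share of heavy chain constant reads held by each class in each library, in percent, with the number of reads under each bar (2 AKK libraries on the left, 2 PBS libraries on the right). Igha fills 20.5% and 23.5% of the AKK bars and 74.9% and 45.5% of the PBS bars, and Ighg1 is nearly absent from PBS 1 at 0.330%.

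Genes of unlike length can be ranked only per length, and reads were therefore also divided by the length of the secreted transcript in GENCODE M21, whose release the tables do not name. On this scale of CPM per kilobase, Igkc was highest in every library, at 86.5 and 37.8 in AKK against 5.81 and 6.40 in PBS. Among heavy chains the order of levels per kilobase in AKK 1 was Ighg2c (19.5), Ighg2b (16.1), Igha (12.6), Ighg1 (6.07), Ighm (3.82), Ighd (1.17) and Ighg3 (0.801). In AKK 2 it was Ighg2c (13.2), Igha (7.02), Ighg2b (4.41), Ighg1 (3.50), Ighg3 (0.744) and Ighm (0.665). Ighg2c thus led both AKK libraries, and the places of Igha and Ighg2b changed between them. In PBS 1 Igha came first at 3.87 CPM per kilobase, followed by Ighg2c at 0.506 and Ighm at 0.377. In PBS 2 Igha came first at 3.90, followed by Ighg1 at 2.85 and Ighg2c at 0.795. The shares of heavy chain reads moved little with length, Igha holding 20.98% and 23.7% in AKK against 77.0% and 45.9% in PBS.

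Ratios of genes within a library were compared on the log2 scale with 0.5 added to each count. Igkc gave 0.682 and 0.611 reads per heavy chain read in AKK, against 0.545 and 0.362 in PBS, so the light chain reads were higher beside the heavy chain reads in both AKK libraries. Jchain gave 0.332 and 0.399 reads per read of Ighm and Igha together in AKK, against 0.311 and 0.249 in PBS. The AKK values again lay above, with AKK 1 close to PBS 1. Mzb1 gave 0.524% and 0.380% of the reads of all constant genes in AKK, against 0.213% and 0.154% in PBS, where each PBS value rests on 1 read. These 3 ratios had log2 differences of 0.54, 0.38 and 0.76, each with p = 0.3333 in the exact two-sided permutation test (0.556 after adjustment over 5 ratios).

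The ratio of Ighg2c to Ighg1, a contrast of the interferon-associated with the interleukin 4-associated subclass, was 3.31 and 3.90 in AKK, against 30 reads to 1 in PBS 1 and 0.288 in PBS 2. Both AKK values lay between the PBS values. The ratio of lambda to kappa reads was 0.174 and 0.0562 in AKK, against 0.0121 and 0.247 in PBS, and overlapped likewise. Both had p = 1.00 in the exact permutation test. PBS 2 was thus the library with the highest share of Ighg1 and the highest ratio of lambda to kappa.

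**Figure D4:**
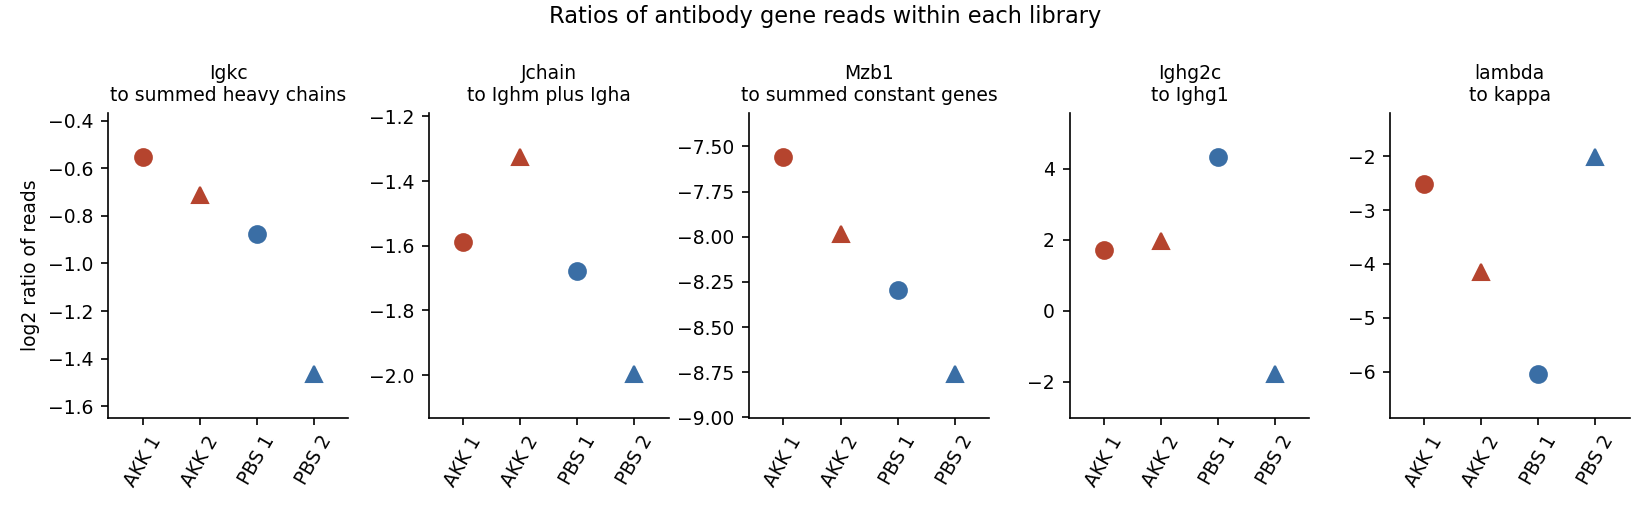
Log2 ratio of reads within each library for 5 pairs of antibody genes, AKK libraries in red and PBS libraries in blue, each panel with its own axis. In the first 3 panels both AKK points lie above both PBS points; in the last 2, Ighg2c to Ighg1 and lambda to kappa, the AKK points lie between the PBS points.

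Variable segments, which encode the antigen-binding part of the chains, were counted as genes of their own. Of 348 variable segments, 137 had a read in some library and 10 passed the filter, of which 9 were positive (median log2 difference 3.08) and 7 lay higher in both AKK libraries. Those 7 lay below the filter's level in both PBS libraries, so they passed through the AKK libraries and could enter only as higher; the counts are a description. EdgeR called 0 of the 10 and DESeq2 called Igkv19-93. Kappa segments held 508 and 589 reads in AKK, against 70 and 82 in PBS, and heavy chain segments 173 and 383, against 57 and 103. Unlike the constant genes, the kappa and the heavy chain segments had more reads in AKK 2 than in AKK 1. The lambda segments had fewer, with 123 reads in AKK 1 and 34 in AKK 2. At least 1 read fell on 50 and 45 of the 160 kappa segments in AKK, against 30 and 24 in PBS, and on 28 and 42 of the 185 heavy chain segments, against 30 and 30. The number detected depends on the number of reads.

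The 5 segments with the most reads differed between tumours of 1 group. Iglv1, the leading lambda segment, had 118 and 33 reads in AKK and 3 and 30 in PBS, with overlap. Igkv19-93 had 33 and 74 reads in AKK and 3 and 1 in PBS, and Igkv1-110 had 45 and 27 against 12 and 25. Igkv6-13 had 79 and 4 reads in AKK and 0 in each PBS library, and Ighv3-6 had 2 and 77 reads in AKK and 1 and 0 in PBS. The last 2 came almost wholly from 1 AKK library each, AKK 1 for Igkv6-13 and AKK 2 for Ighv3-6. In AKK 2, Ighv3-6 held 20.1% of the heavy chain segment reads, and in PBS 2 Igkv1-110 held 30.5% of the kappa segment reads.

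Genes of antibody-secreting cells outside the antibody loci differed less in their median. Of 20 listed genes, 17 passed the filter, 0 were called by edgeR in either direction, 2 were called as higher by DESeq2, and the median log2 difference was 0.26. The 2 were Creld2, an endoplasmic reticulum chaperone (80.4 and 75.8 CPM in AKK against 37.2 and 38.9 CPM in PBS; log2 difference 1.04, SE 0.17, adjusted p = 0.182 in edgeR), and Fkbp11, a peptidyl-prolyl isomerase of secretory cells (10.4 and 8.72 against 3.60 and 3.15 CPM; 1.4993, SE 0.33, adjusted p = 0.188). Both stood higher in 2 of 2 AKK libraries. Xbp1, a transcription factor of the secretory programme, read 106 and 103 CPM in AKK against 88.4 and 87.1 CPM in PBS, and Sdc1, the plasma cell antigen CD138 that epithelia also carry, 355 and 541 against 439 and 414 CPM. Irf4, needed for plasma cell formation, read 0.779 and 0.343 CPM in AKK against 0.45 and 0.484 CPM in PBS. Tnfrsf17, which encodes the plasma cell receptor BCMA, had 0 reads in all 4 libraries. Pou2af1, a coactivator of immunoglobulin transcription, had 48 and 13 reads in AKK and 2 and 9 in PBS. Cd38, an ectoenzyme found on many cell types, stood lower in both AKK libraries, at 9.84 and 13.4 CPM against 29.5 and 16.7 CPM in PBS (adjusted p = 0.288 in edgeR).

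B cell genes were scarce. Of 18 listed, 7 passed the filter, 0 were called by edgeR, 1 was called as lower by DESeq2, and the median log2 difference was 0.82. Ms4a1, the gene of CD20, had 23 and 0 reads in AKK and 0 in each PBS library. The antigen receptor subunit genes Cd79a and Cd79b had 48 and 9, and 39 and 3, reads in AKK, against 12 and 7, and 10 and 7, in PBS. These genes were thus high in AKK 1 alone, as Ighd was, while Igkc was high in both AKK libraries. Cd79a gave 1.84 and 0.767 reads per 100 Igkc reads in AKK, against 7.27 and 4.32 in PBS, a ratio chosen after its values were seen. The DESeq2 call was Ebf1, a B lineage factor that stromal cells also express (1.49 and 1.01 CPM in AKK against 7.61 and 4.63 CPM in PBS). The adaptor gene Blnk read 24.4 and 15.6 CPM in AKK against 10.7 and 8.81 CPM in PBS (adjusted p = 0.248 in edgeR).

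Of 14 genes of class switching and the germinal centre, 10 passed the filter, edgeR and DESeq2 called 0, 1 was lower at an unadjusted p under 0.05 in edgeR (Rif1), and the median log2 difference was -0.06. Of 14 cytokines and regulators of switching, 9 passed the filter and edgeR and DESeq2 called 0, with 0 also at an unadjusted p under 0.05 in edgeR. Ifng had 23 and 16 reads in AKK and 3 and 20 in PBS, Tgfb1 read 392 and 469 CPM in AKK against 405 and 400 CPM in PBS, and Il4 had 0 reads in all 4 libraries. The Ifng values overlapped between the groups (log2 difference 0.53, SE 0.92).

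Among 13 genes that bind or carry antibody, 12 passed the filter, edgeR called 0 and DESeq2 called 1 as higher. Of the 12, 7 stood lower in both AKK libraries (median log2 difference -0.33), against 4317 of all 17479 genes tested. The DESeq2 call was Pigr, the polymeric immunoglobulin receptor that hepatocytes and bile duct cells may carry in rodents. It had 834 and 126 reads in AKK and 0 in each PBS library, at least 142-fold higher in AKK with PBS set to 3 reads per library. The receptor genes Fcgr1, Fcgr3 and Fcgr4 and the complement genes C1qa, C1qb and C1qc, which macrophages express, were among the 7 lower genes. Fcgr4, which binds IgG2 subclasses, read 11.2 and 12.2 CPM in AKK against 15.2 and 16.2 CPM in PBS, and C1qc 40.1 and 41.0 against 62.9 and 54.0 CPM (adjusted p = 0.286 in edgeR). Of 16 survival and homing genes, 9 passed the filter, edgeR called 0 and DESeq2 called 1 as lower. It was Tnfsf13b, the B cell survival factor BAFF, at 3.06 and 2.77 CPM in AKK against 9.90 and 6.29 CPM in PBS (log2 difference -1.47, SE 0.38, adjusted p = 0.219 in edgeR, lower in 2 of 2 AKK libraries).

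Markers of other cell types were set beside the antibody genes. Over all 17479 genes tested, 4674 lay higher in both AKK libraries, 4317 lay lower in both, and 9045 were positive. All 14 hepatocyte genes lay higher in both AKK libraries, and their summed level was 675 and 204 CPM in AKK against 5.06 and 12.5 CPM in PBS, while that of the 10 antibody genes was 121 and 56.7 against 10.3 and 14.05 CPM. Both sums were highest in AKK 1, then AKK 2. Among the hepatocyte genes, Fgg, Cps1, Cyp3a11, Cyp2e1, Tat and Pck1 lay below the filter's level of 0.185 CPM in both PBS libraries. Such genes passed through the AKK libraries and could enter only as higher. Of 9 Kupffer cell genes, 6 lay higher in both AKK libraries, with Clec4f at 112 and 23 reads in AKK and 1 and 0 in PBS. Among these 6, Clec4f, Vsig4, Cd5l and Timd4 were below the filter's level in both PBS libraries and could enter only as higher. The sum of the 9 genes overlapped between groups (31.8 and 12.9 CPM in AKK against 30.8 and 19.4 CPM in PBS). The list also holds Cdh5, which endothelium expresses, at 7.45 and 7.76 CPM in AKK against 24.3 and 16.7 CPM in PBS. T cell genes summed to 37.2 and 23.6 CPM in AKK against 42.8 and 29.5 CPM in PBS, with 5 of 13 higher in both AKK libraries and 1 lower. Of the 13, 12 were positive (median log2 difference 1.00), and edgeR called 0. The lower one, Thy1, which stromal cells also express, read 16.6 and 14.7 CPM in AKK against 37.4 and 20.2 CPM in PBS and made up a large part of the sums. The part of these cells in the antibody values was not tested.

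Markers of further cell types and tissues were also read, and their relation to the antibody values was not tested. Siglech, a defining gene of plasmacytoid dendritic cells, had 5 and 2 reads in AKK and 0 and 2 in PBS. The list of 12 such genes summed to 344 and 226 CPM in AKK against 264 and 306 CPM in PBS. Tcf4 made up the largest part of each sum, at 168 and 133 CPM in AKK against 203 and 166 CPM in PBS. Ly6d, which that list and early B cells share with epithelia, read 3.95 and 1.25 CPM in AKK against 0.1500 and 0.0210 CPM in PBS. The lymph node genes Ccl19, Ccl21a and Madcam1 had 0 reads in all 4 libraries. Multimapping reads were not counted, so a gene with close copies could read 0 for that reason. The list of 10 summed to 4.60 and 6.37 CPM in AKK against 5.10 and 3.34 CPM in PBS. Enpp2 was the largest part of each sum, at 2.19 and 5.51 CPM in AKK against 4.18 and 2.29 CPM in PBS. The 9 intestinal genes summed to 1443 and 1541 CPM in AKK against 1332 and 2119 CPM in PBS, carried mostly by Krt20 (905 and 716 against 867 and 1070.1 CPM) and Cdh17 (515 and 778 against 450.2 and 926 CPM), while Tff3 and Cdx1 had 1 read or fewer in each library. Haemoglobin and other erythroid genes summed to 11.2 and 4.83 CPM in AKK against 19.3 and 13.2 CPM in PBS. Macrophage genes summed to 532 and 524 against 765 and 592 CPM, with 6 of 9 lower in both AKK libraries. Endothelial genes summed to 29.8 and 31.2 against 91.6 and 66.4 CPM, with 7 of 8 lower. Over all 17479 genes tested, 4317 were lower in both AKK libraries.

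**Figure D5:**
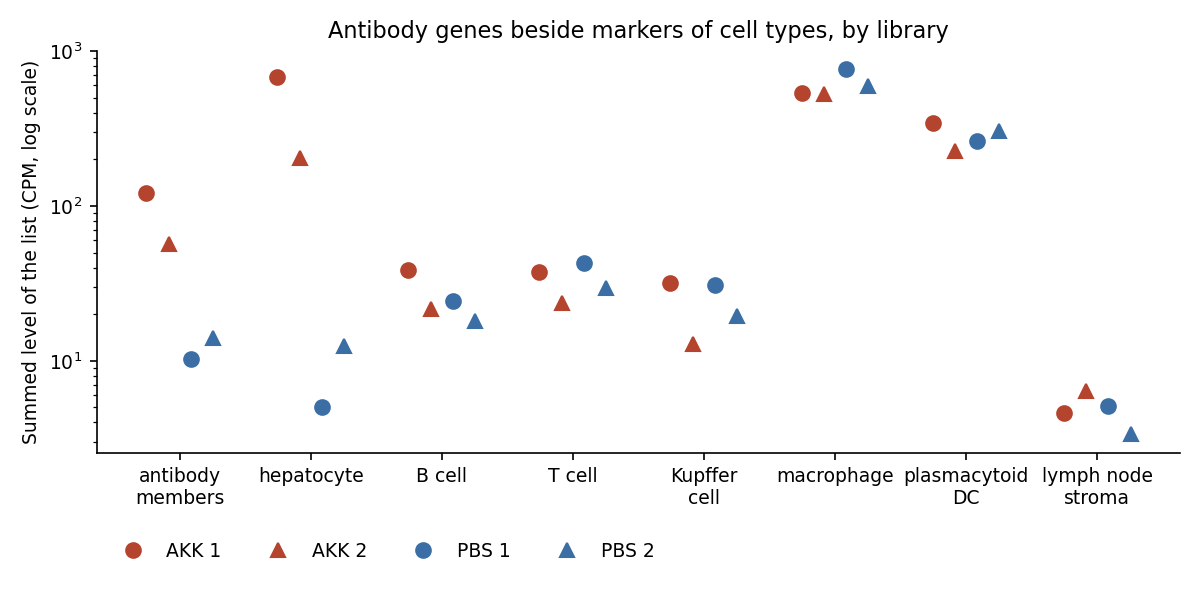
Summed level of each gene list in each library, in CPM on a log axis, for the 10 antibody genes and 7 lists of cell type markers (AKK red, PBS blue; circles replicate 1, triangles replicate 2). The antibody genes and the hepatocyte genes are the lists whose AKK sums both lie above both PBS sums by a wide gap.

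The genes most like the antibody set over the 4 libraries were sought among 13453 genes whose log2 CPM averaged 0 or more, outside the lists and the antibody loci. Likeness was the root mean square distance of centred log2 values (0.5 CPM added) to the mean profile of the 9 members tested. The nearest were the tight junction gene Cldn3 (distance 0.14), the connexin gene Gjb2 (0.16), the serum amyloid P gene Apcs (0.17), the keratin gene Krt76 (0.18) and Slitrk2 (0.18). The members themselves lay at 0.37 (Jchain) to 0.93 (Ighg2c) from their mean. Krt76 read 40.9 and 16.5 CPM in AKK against 3.86 and 5.85 CPM in PBS. With 4 libraries such likeness is a description of these tumours.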

How the data were processed

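Deposited read counts per gene from 4 tumour libraries, sequenced as pairs of 151-base reads per the labels' protocols, were used as the authors left them. Their layout is that of STAR gene counts. STAR 2.5.2 and RSEM 1.2.31 are listed, without roles, per the submitters' processing notes, and no source used here states a genome build or annotation. The column of the gene's own strand (95.4 to 96.2% of reads assigned by strand) was used. The 4 summary rows were left out; they held 8.97 to 12.3% unmapped, 4.20 to 6.66% multimapping, 11.4 to 13.5% outside genes and 1.18 to 1.37% ambiguous reads. Symbols were matched for 48058 of 48526 identifiers.

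Genes were compared with edgeR 4.0.16 in R 4.3.3 (filterByExpr, TMM, legacy quasi-likelihood test, two-sided) with Benjamini-Hochberg adjustment at 0.05 over 17479 genes. DESeq2 1.42.0 and limma 3.58.1 were alternatives, and the test was tried on simulated counts. Shares and ratios within a library were compared by exact permutation, and sequences are from GENCODE M21. RefSeq promoters (GRCm38.p6) included Jchain among the members; its 300-base promoter held no octamer ATGCAAAT on either strand, which 1.74% of 32851 promoters held. Same-numbered libraries did not deviate together (r = -0.04 across 14841 genes). Named genes were all members, other constant genes, up to 4 per list by smallest p with defining genes at or near 0, the 5 leading variable segments and the 5 nearest profiles; others were chosen after their values were seen. The members and lists were chosen with earlier results of these data known. Some genes on the lists are not reported here.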

Additional observations from a re-analysis of the deposited data

Results flagged for a closer look

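Reads on the strand opposite to the 10 antibody genes, a column not used for the comparisons, made up 0.627% and 0.391% of the members' stranded reads in AKK 1 and AKK 2, against 0.182% and 0.299% in PBS 1 and PBS 2. Both AKK shares lay above both PBS shares. They rest on 43 and 13 opposite-strand reads in AKK and 1 and 2 in PBS.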

How the results depend on the processing

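All 9 members stayed positive under every alternative run in which they were tested. The count of members called, 0 in edgeR, was 3 without a filter on low counts, 3 with the replicate number as a block, 6 in DESeq2 and 0 to 4 with a library left out; in the 3-call fits the genes were Ighg2b, Ighg2c and Igkc. The count of all genes called, 1 in edgeR, was 3 with upper-quartile scaling, 631 without a filter, 209 with the replicate block, 908 in DESeq2, 0 in limma-voom, 4 with the edgeR 4 form of the test, 3 and 0 at thresholds of 0.1 and 0.01, and 0 to 324 with a library left out. The replicate numbers are not known to pair the libraries. The median log2 difference of the members was 3.02 and ranged from 2.00 to 4.34 with a library left out, not always over the same members. The cause of these moves was not tested.

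The differences in share kept their direction for Igha, Ighg2c and the summed gamma genes in every alternative, ranging with a library left out from -52.9 to -23.5, 22.4 to 35.1 and 22.9 to 56.4 points. The log2 difference of Mzb1 to all constant genes was 0.76, and 0.38 with 1 in place of 0.5 added. The ratios of Ighg2c to Ighg1 and of lambda to kappa turned direction with a library left out, from -2.50 to 3.63 and from -1.33 to 2.72. The share differences of Ighm, Ighd and Ighg1 turned as well: that of Ighd was -0.112 points without AKK 1 against 0.583 with all libraries, and that of Ighg1 was 10.2 points without PBS 2 against -5.90. Lengths of the files' own build were not used here; the per-length shares were added after seeing the data. PBS shares rest on 303 and 448 reads.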
